A study of Homo sapiens with 18 samples.

Results

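The genes described here are 10 prostate genes that androgen is known to induce. They are KLK3, KLK2, KLK4, TMPRSS2, FKBP5, SLC45A3, STEAP2, TRPM8, ABCC4, and PMEPA1. The list was chosen by name, with earlier results of these data known, and matched to the Ensembl identifiers of the count table. All 10 were found among its 22034 genes, and all 10 were among the 14164 genes that passed the filter on low counts, with between 112 and 50764 counts in any sample.

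Androgen acts on the luminal prostate cell through DNA sites of paired short repeats, the androgen response elements, where coregulators are recruited that switch on genes of secretion and differentiation. In tumors with the TMPRSS2:ERG fusion, the androgen-driven promoter of TMPRSS2 is joined to ERG, a transcription factor of the ETS family, so that androgen also drives ERG. KLK3 encodes prostate-specific antigen (PSA), the serum marker of prostate disease and a classic readout of androgen action.

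RNA-seq of ribosome-depleted total RNA was performed on 18 samples of VCaP, an established prostate cancer line from a metastasis that carries the TMPRSS2:ERG fusion, in 6 groups of 3. VCaP cells with a doxycycline-inducible hairpin against ERG (shERG) received DMSO (shERG-DMSO) or 1 µg/mL doxycycline (shERG-Dox), for a duration the labels do not state. VCaP cells without a stated hairpin received DMSO, at a collection time the labels do not state, or 50 µM PBITE-1 for 4, 8, or 12 h. PBITE-1 is a small molecule that the study made to bind the Pointed domain of ERG, and the samples ask how androgen target genes move when ERG is lowered by the hairpin or targeted by the compound. All groups shared the VCaP background and medium with serum. The hairpin was carried in a Tet-on vector. Whether the shERG cells are 1 clone is not given in the sources used here, and no sample with doxycycline but without the ERG hairpin was analysed here.

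Totals were between 11308600 and 17483423 counts per sample. The hairpin target checked the labels: ERG was at 461, 449, and 433 CPM (counts scaled to a common library size, with TMM factors set within each experiment) in shERG-DMSO and at 166, 167, and 159 CPM in shERG-Dox. The markers of luminal prostate epithelium (7 of 7, KRT8 and KRT18 included) were detected in every sample with at least 1197 counts. Of the other marker lists, DCN, COL1A2, PTPRC, CD3E, and CDH5 had at most 4 counts in any sample, whereas COL1A1, a collagen of stroma, reached 110 counts and the neuroendocrine markers CHGA and SYP were present throughout. The summed level of the stroma list was 1.35 to 2.32 CPM in shERG-DMSO and 7.52 to 8.86 CPM in shERG-Dox, and 1.89 to 2.96 CPM in DMSO and 5.31 to 9.28 CPM at 12 h of PBITE-1. The luminal list summed to 2470 to 2524 CPM in shERG-DMSO and 2843 to 2863 CPM in shERG-Dox, and to 3047 to 3111, 2590 to 2661, 2271 to 2338, and 2467 to 2861 CPM in DMSO and at 4, 8, and 12 h. The neuroendocrine list summed to 104 to 106 CPM in shERG-DMSO and 140 to 149 CPM in shERG-Dox, and to 83.3 to 92.2 CPM in DMSO and 88.1 to 95.8 CPM at 12 h. The part of these lists in the results was not tested. PBITE-1 12 h replicate 2 had the lowest level of the 3 samples in 9 of the 10 genes, and 12 h replicate 1 had the highest in 8. Values that rest on 12 h replicate 2 are given with and without it.

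**Figure D1:**
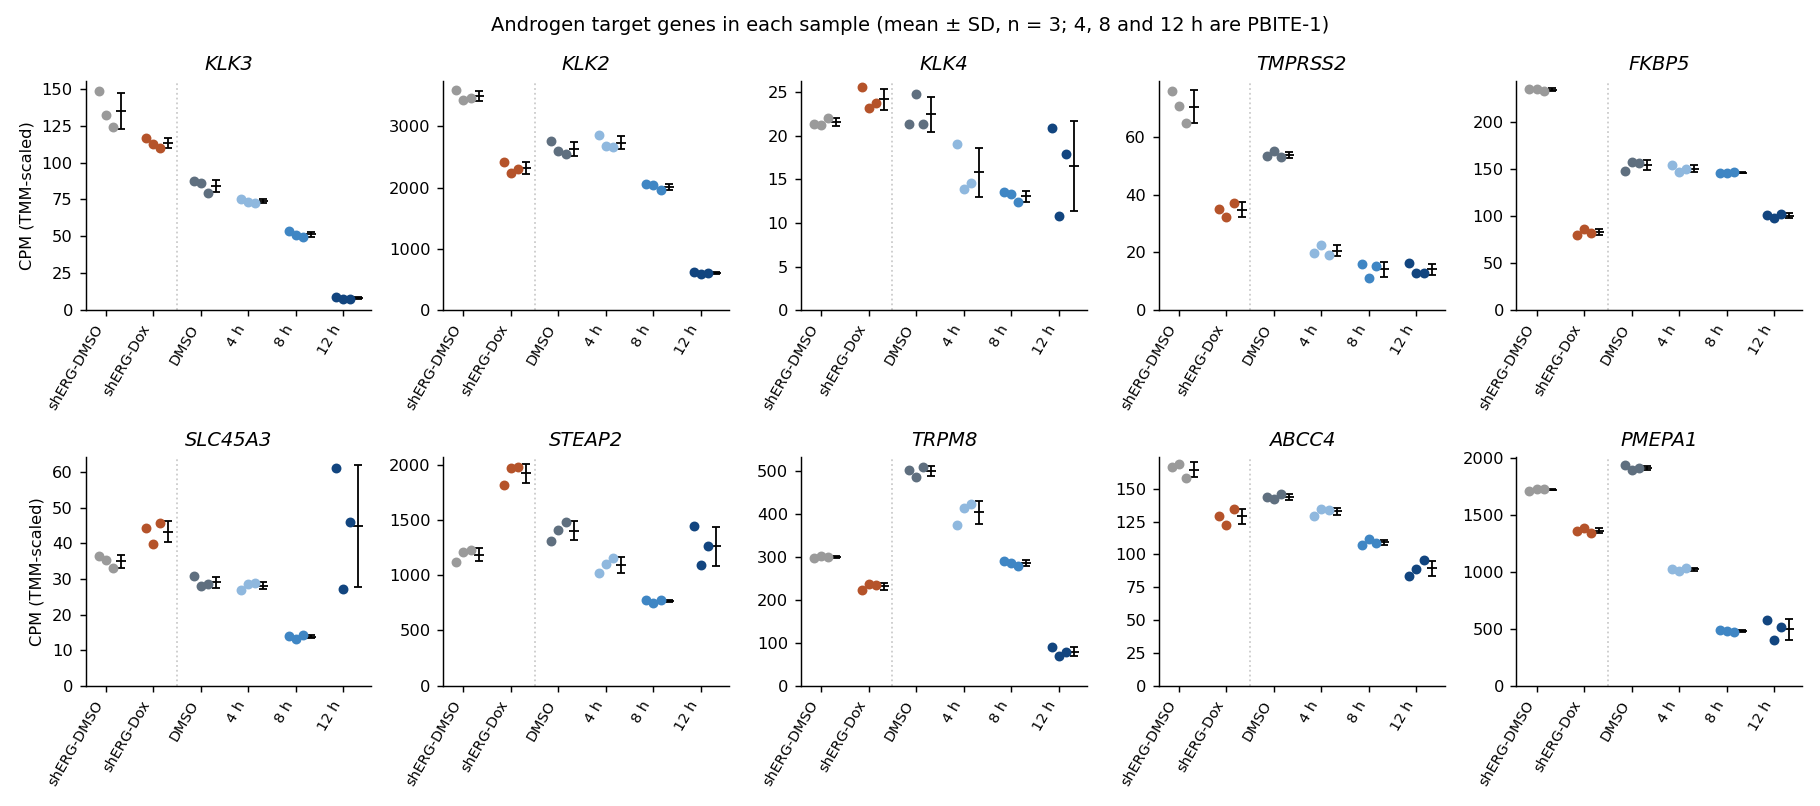
Level of each of the 10 genes in CPM (y-axis, from 0) in every sample of the 6 groups (x-axis); points are samples, and the bar beside them is the mean ± SD of 3 samples. KLK3, KLK2, and TRPM8 were lowest at 12 h of PBITE-1, FKBP5 was lowest in shERG-Dox, and the 3 samples at 12 h spread widely for SLC45A3 (61.3, 27.1, and 45.9 CPM) and KLK4.

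Together the 10 genes took between 0.708 and 0.717% of all counts in DMSO samples. After 4 h of PBITE-1 their share lay between 0.559 and 0.566%, after 8 h between 0.378 and 0.388%, and after 12 h between 0.238 and 0.303%. In the shERG cells their share was 0.670 to 0.674% with DMSO and 0.682 to 0.690% with Dox. The share therefore fell at each time of PBITE-1 with no overlap between groups, whereas with Dox it was slightly higher than with DMSO, with losses of some genes beside a gain of STEAP2. It is a share of counts without TMM scaling, and its direction with Dox depends on scaling. With TMM, mean KLK2 fell from 3498 to 2321 CPM with Dox, and mean STEAP2 rose from 1186 to 1921 CPM. A gene was said to have passed when its adjusted p was under 0.05 in limma-voom, with Benjamini-Hochberg adjustment over all 14164 genes, and to be past both thresholds when its absolute log2 fold change was also above 1.

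With Dox, 7 of the 10 genes fell and 2 rose, with FKBP5 (log2 fold change −1.50) and TMPRSS2 (−1.02) past both thresholds. Among all genes tested, 35.3% fell and 35.1% rose, and among the 7880 genes with a mean count of at least 250, the range of these genes, 48.9% fell and 31.3% rose. Past both thresholds and lower were 7.19% of all genes. The balance of lower and higher calls depended on scaling, since 5005 genes fell and 4969 rose with TMM, 3829 and 6372 with upper-quartile scaling, and 3184 and 7247 with library size only. The last moved the median log2 fold change of all genes from 0.02 to 0.28. Of the 7 genes that fell with TMM, KLK3 turned to a log2 fold change of 0.02 with library size only, which was 0.26 below that median (−0.26). ABCC4 was then at −0.09 and no longer passed (adjusted p = 0.056), and PMEPA1 and TRPM8 shrank to −0.08 and −0.11. Relative to that median, ABCC4, PMEPA1, and TRPM8 were at −0.37, −0.36, and −0.39. As these are bulk samples, fewer cells of a type and less RNA per cell cannot be told apart.

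With PBITE-1, 7 of the 10 genes fell and none of the 10 rose at 4 h, when 24.7% of all genes fell and 26.4% rose. At 8 h, 9 fell and none of the 10 rose, against 37.0% of all genes lower and 35.9% higher. At 12 h, 9 fell and 1 rose, against 39.4% lower and 39.4% higher. The numbers that fell at 4, 8, and 12 h were 7, 9, and 9 in edgeR and 6, 9, and 7 in DESeq2. Without 12 h replicate 2, 7 fell at 12 h in limma. The count of 0 genes that rose at 4 h and at 8 h was also 0 at an unadjusted p under 0.05 in limma, and 0 in edgeR and in DESeq2. At 4 h it was 1, KLK2, with a replicate block or without DMSO replicate 1. Among genes with a mean count of at least 250, the shares that fell were 29.5, 43.3, and 45.4% at 4, 8, and 12 h. The number past both thresholds and lower grew from 1 (TMPRSS2) at 4 h to 3 (TMPRSS2, PMEPA1, SLC45A3) at 8 h and 5 (KLK3, TRPM8, KLK2, PMEPA1, TMPRSS2) at 12 h, where 2.99, 8.86, and 15.4% of all genes were past both and lower. The median log2 fold change of the 10 genes was −0.25, −0.79, and −1.32 at the 3 times, beside medians of −0.01, −0.02, and −0.01 over all genes. The 3 times share the DMSO samples.

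**Figure D2:**
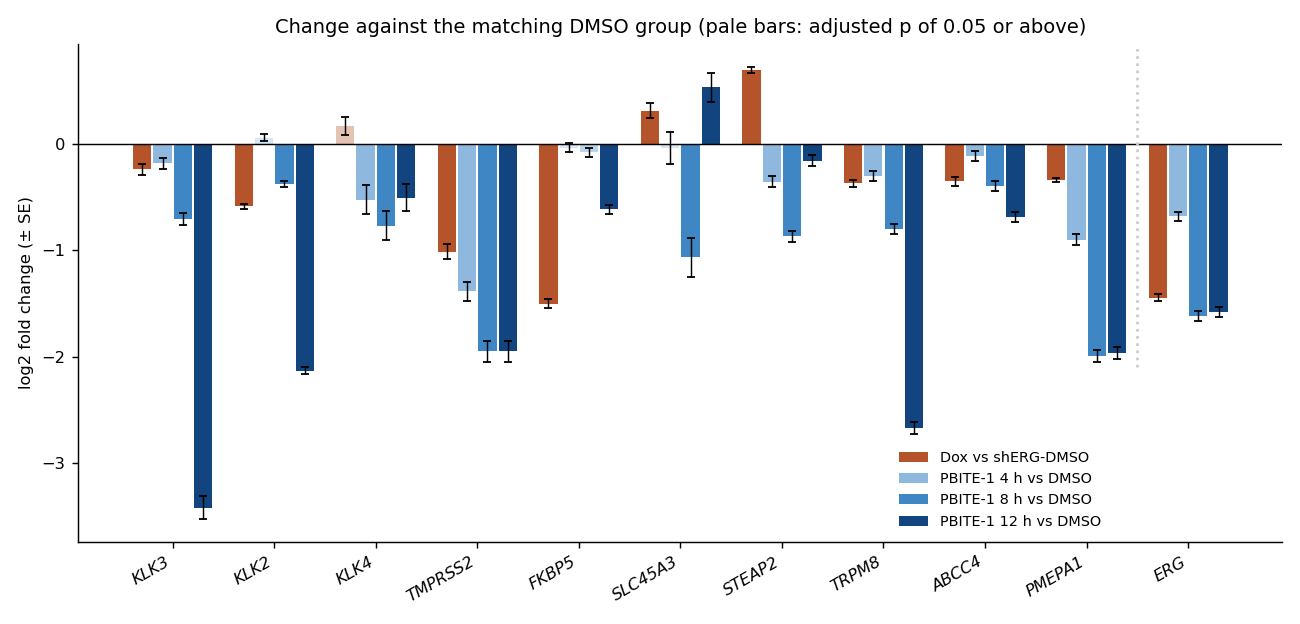
Log2 fold change against the matching DMSO group (y-axis, bars from 0, ± SE from limma) of the 10 genes and ERG (x-axis) with Dox and after 4, 8, and 12 h of PBITE-1; pale bars have an adjusted p of 0.05 or above. The deepest bar is KLK3 at 12 h (−3.42), and FKBP5 fell more with Dox (−1.50) than at 12 h of PBITE-1 (−0.62).

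Levels between genes can be compared only per length, here as CPM per kilobase of exon with all 18 samples scaled together. In DMSO the order was KLK2 (432 ± 18.7, SD, n = 3), PMEPA1 (357 ± 4.10), STEAP2 (169 ± 9.86), TRPM8 (66.4 ± 1.55), KLK3 (19.1 ± 0.984), ABCC4 (17.5 ± 0.249), FKBP5 (15.2 ± 0.524), KLK4 (12.2 ± 1.07), TMPRSS2 (9.22 ± 0.189), and SLC45A3 (8.24 ± 0.448) CPM per kilobase, and no neighbors overlapped. KLK2 thus stood far above KLK3 in these cells. At 12 h of PBITE-1 the order had changed, with STEAP2 first at 148 ± 20.0, KLK2 at 95.9 ± 2.59 next and overlapping with PMEPA1 at 90.1 ± 16.2, and KLK3 last at 1.74 ± 0.146 CPM per kilobase. From the fourth place to the eighth, SLC45A3, ABCC4, TRPM8, FKBP5, and KLK4, each overlapped the next.

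The kallikreins KLK3, KLK2, and KLK4 are secreted serine proteases of the prostate, and KLK2 cleaves the precursor of PSA. Their genes lie close together on chromosome 19 (GENCODE 29, GRCh38), KLK3 at chr19:50854915-50860764 and KLK2 at chr19:50861568-50880567 on the plus strand, and KLK4 at chr19:50906352-50910738 on the minus strand. KLK2 and KLK3 are close paralogs, and reads common to both could have been counted to either. Their promoters are shown because the androgen response element of the KLK3 promoter is a textbook example and because KLK3 and KLK2 had the first and the third most negative fold change of the 10 genes at 12 h of PBITE-1. The 250 bases before the start of each are from RefSeq (GRCh38.p14), at chr19:50854665-50854914 for KLK3 and chr19:50873189-50873438 for KLK2, both on the plus strand and 5′ to 3′. Capitals mark the best match to the palindromic motif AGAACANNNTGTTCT.
KLK3: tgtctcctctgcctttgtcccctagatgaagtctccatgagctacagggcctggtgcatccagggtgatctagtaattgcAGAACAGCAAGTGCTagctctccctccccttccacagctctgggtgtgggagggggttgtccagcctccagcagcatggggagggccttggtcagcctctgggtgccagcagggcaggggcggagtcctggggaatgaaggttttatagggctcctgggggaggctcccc
KLK2: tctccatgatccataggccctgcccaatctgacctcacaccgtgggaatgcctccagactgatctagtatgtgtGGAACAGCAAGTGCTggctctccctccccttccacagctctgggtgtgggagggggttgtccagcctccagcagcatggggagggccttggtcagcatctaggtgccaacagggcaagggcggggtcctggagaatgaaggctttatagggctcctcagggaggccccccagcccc

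The match began 170 bases before the start in KLK3, at chr19:50854745-50854759, and 176 bases before it in KLK2, at chr19:50873263-50873277. Counted from 1 at the 5′ end of the motif, the KLK3 match differed from the motif at T10A and T13G, the KLK2 match at A1G, T10A, and T13G, and the KLK2 match from the KLK3 match at A1G alone. The upstream sequences were identical in 207 of 259 alignment columns (79.9%). Searched over 250 bases before to 50 after each start on both strands, 1.41% of the 35116 RefSeq windows held a match with at most 2 mismatches and 10.8% one with at most 3. Windows were found for 9 of the 10 genes, 20 in all since genes have several starts, and 6 of these 20, from 6 genes (KLK3, KLK2, TRPM8, FKBP5, STEAP2, PMEPA1), held a match with at most 3 mismatches. Only KLK3 and an alternative start of PMEPA1 held one with at most 2. The single arms of the motif, AGAACA or TGTTCT, were in 5 of the 20 windows and in 14.8% of all. A match is a description of letters, not a measured site, and no binding was measured in these samples.

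KLK3 was at 87.3, 86.2, and 79.5 CPM in DMSO, at 75.4, 73.4, and 72.9 CPM after 4 h, at 53.5, 50.7, and 49.7 CPM after 8 h, and at 8.71, 7.45, and 7.53 CPM after 12 h of PBITE-1. Every sample of a later time was below every sample of the time before. The log2 fold change against DMSO was −0.19 ± 0.05 (SE; adjusted p = 0.00325) at 4 h, −0.71 ± 0.06 (3.66e-14) at 8 h, and −3.42 ± 0.11 (3.11e-27) at 12 h, a 10.7-fold lower level. The largest step lay between 8 and 12 h, with a log2 fold change of −2.71 ± 0.11 (adjusted p = 1.51e-22), compared with −0.52 ± 0.06 from 4 to 8 h. With Dox, KLK3 went from 148, 132, and 124 CPM to 117, 113, and 110 CPM, a log2 fold change of −0.24 ± 0.05 (adjusted p = 0.000167) that was −0.08 and no longer passed with upper-quartile scaling (0.156) and turned to 0.02 with library size only.

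KLK2 was at 2755, 2595, and 2545 CPM in DMSO and at 2860, 2686, and 2659 CPM at 4 h, so the groups overlapped, with a log2 fold change of 0.06 ± 0.03 (95% interval −0.004 to 0.12, adjusted p = 0.112). Without DMSO replicate 1 the value was 0.09 and passed (adjusted p = 0.0123). It was then at 2055, 2036, and 1962 CPM at 8 h and at 615, 581, and 606 CPM at 12 h. KLK2 fell by 0.38 on the log2 scale at 8 h (SE 0.03, adjusted p = 2.58e-14) and by 2.13 at 12 h (SE 0.03, adjusted p = 1.26e-36), 4.38-fold. With Dox it fell from 3592, 3433, and 3469 CPM to 2421, 2239, and 2304 CPM, by 0.59 on the log2 scale (SE 0.02, adjusted p = 8.96e-19), with no overlap between groups.

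KLK3 and KLK2 moved by unequal amounts. For each 100 counts of KLK2 there were 3.17, 3.32, and 3.12 counts of KLK3 in DMSO, 2.64, 2.73, and 2.74 at 4 h, 2.60, 2.49, and 2.53 at 8 h, and 1.42, 1.28, and 1.24 at 12 h of PBITE-1. With Dox the ratio moved the other way, from 4.13, 3.85, and 3.58 in shERG-DMSO to 4.84, 5.04, and 4.77 in shERG-Dox. The ratio is taken within each sample and does not depend on scaling.

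KLK4, expressed at a lower level than KLK2, was at 21.4, 24.8, and 21.4 CPM in DMSO, at 19.0, 13.9, and 14.6 CPM at 4 h, and at 13.5, 13.3, and 12.4 CPM at 8 h. It fell by 0.53 at 4 h and by 0.77 at 8 h on the log2 scale (SE 0.13 and 0.14, adjusted p = 0.00118 and 5.43e-06), without overlap with DMSO. At 12 h its samples were at 20.9, 10.9, and 17.9 CPM, and the log2 fold change of −0.51 ± 0.13 (adjusted p = 0.000577) was −0.22 ± 0.11 (0.0631) without replicate 2 and −0.44 (0.063) in DESeq2. From 8 to 12 h the value was 0.26 ± 0.15 (adjusted p = 0.131), and 0.55 (0.000158) without that replicate. With Dox, KLK4 was at 25.6, 23.2, and 23.8 CPM beside 21.4, 21.2, and 22.1 CPM in shERG-DMSO, a log2 fold change of 0.17 ± 0.08 (95% interval −0.003 to 0.34, adjusted p = 0.0748), which passed with upper-quartile scaling, library size only, no filter, or a filter of 10 counts in every sample. Every Dox sample was above every shERG-DMSO sample.

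Of the other 12 genes of the kallikrein cluster, KLK15 alone passed the filter on low counts, with 7 to 62 counts in these samples. Its log2 fold change was 0.49 with Dox (adjusted p = 0.0516), −0.30 at 4 h (0.373), −1.34 at 8 h (0.00056), and −0.68 at 12 h (0.0289). The value with Dox passed with RLE (0.0489), upper-quartile scaling (0.0108), and library size only (0.00365), and without shERG-DMSO replicate 3 (0.0107). The value at 12 h did not pass in 4 alternatives, those without DMSO replicate 2, 12 h replicate 2, or 12 h replicate 3, and without a filter on low counts.

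TMPRSS2, a serine protease of the cell surface and the 5′ partner of the fusion, lies at chr21:41464551-41531116 on the minus strand. It was at 53.4, 54.9, and 52.9 CPM in DMSO and at 19.9, 22.7, and 19.1 CPM after 4 h of PBITE-1, a log2 fold change of −1.39 ± 0.09 (adjusted p = 2.43e-16). No other gene of the 10 was past both thresholds at this time. It was at 15.8, 11.1, and 15.3 CPM at 8 h (−1.95 ± 0.10, adjusted p = 3.96e-20) and at 16.2, 12.9, and 13.0 CPM at 12 h (−1.95 ± 0.10, adjusted p = 1.6e-20). The step from 4 to 8 h passed (−0.56 ± 0.12, adjusted p = 8.56e-05). The value from 8 to 12 h was −0.0008 ± 0.12, with a 95% interval of −0.25 to 0.25. TMPRSS2 was thus about as low at 8 h as at 12 h, whereas KLK3 and KLK2 fell between these times.

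With Dox, TMPRSS2 fell from 75.9, 70.7, and 64.8 CPM to 35.1, 32.1, and 37.1 CPM, a log2 fold change of −1.02 ± 0.07 (adjusted p = 8.38e-13), 2.02-fold. It lay close to the threshold of 1 and was −0.75 with library size only. Reads of the fusion transcript can be counted to TMPRSS2 and to ERG, and the hairpin lowers ERG transcripts, so a change of TMPRSS2 itself and of the fusion cannot be told apart here. For each 100 counts of ERG there were 16.5, 15.8, and 14.9 counts of TMPRSS2 in shERG-DMSO and 21.1, 19.2, and 23.3 in shERG-Dox. In the PBITE-1 experiment the ratio was 19.1, 19.0, and 17.8 in DMSO and 11.2, 12.3, and 10.7 at 4 h, where TMPRSS2 had fallen by 1.39 and ERG by 0.68 on the log2 scale. The ratio was then 16.4, 11.8, and 16.9 at 8 h and 15.8, 14.6, and 12.9 at 12 h.

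FKBP5 encodes a co-chaperone of HSP90 that binds steroid receptor complexes and is induced by androgen and by glucocorticoid. It lies at chr6:35573585-35728583 on the minus strand. FKBP5 was at 236, 235, and 233 CPM in shERG-DMSO and at 79.9, 86.3, and 82.4 CPM in shERG-Dox. It fell by 1.50 on the log2 scale (SE 0.04, adjusted p = 5.1e-21), 2.84-fold, the largest change of the 10 genes with Dox. In the PBITE-1 experiment the order was different. FKBP5 was at 148, 158, and 157 CPM in DMSO, at 154, 147, and 150 CPM at 4 h, and at 145, 146, and 146 CPM at 8 h. The log2 fold change was −0.04 ± 0.04 at 4 h (95% interval −0.13 to 0.05, adjusted p = 0.486) and −0.08 ± 0.04 at 8 h (−0.17 to 0.01, adjusted p = 0.0885), when PMEPA1 and TMPRSS2 had both fallen to about their lowest levels. At 12 h FKBP5 was at 101, 97.8, and 103 CPM, with no overlap with DMSO, and had fallen by 0.62 (SE 0.05, adjusted p = 1.61e-15), 1.53-fold. The value at 8 h passed in 4 alternatives, with log2 fold changes of −0.11 with upper-quartile scaling, −0.15 with library size only, −0.11 in a fit of all 18 samples, and −0.11 without DMSO replicate 1.

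PMEPA1, a membrane protein that binds the ubiquitin ligase NEDD4 and dampens TGF-β signaling, lies at chr20:57648392-57711536 on the minus strand. It was at 1931, 1892, and 1907 CPM in DMSO, 1020, 1006, and 1036 CPM at 4 h, 489, 477, and 471 CPM at 8 h, and 577, 397, and 515 CPM at 12 h of PBITE-1. All treated samples were below all DMSO samples, and the samples at 12 h enclosed those at 8 h. PMEPA1 fell by 0.90 at 4 h (SE 0.05, adjusted p = 3.8e-18), by 1.99 at 8 h (SE 0.05, adjusted p = 9.1e-29), and by 1.97 at 12 h (SE 0.05, adjusted p = 6.43e-29). Between 8 and 12 h the value was 0.03 ± 0.06 (95% interval −0.10 to 0.15, adjusted p = 0.701), but 0.18 (0.000107) without 12 h replicate 2, −0.08 without 12 h replicate 1, and −0.01 without 12 h replicate 3. With Dox it fell from 1711, 1726, and 1723 CPM to 1354, 1382, and 1343 CPM, by 0.34 on the log2 scale (SE 0.02, adjusted p = 1.04e-14). The value was −0.08 with library size only.

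**Figure D3:**
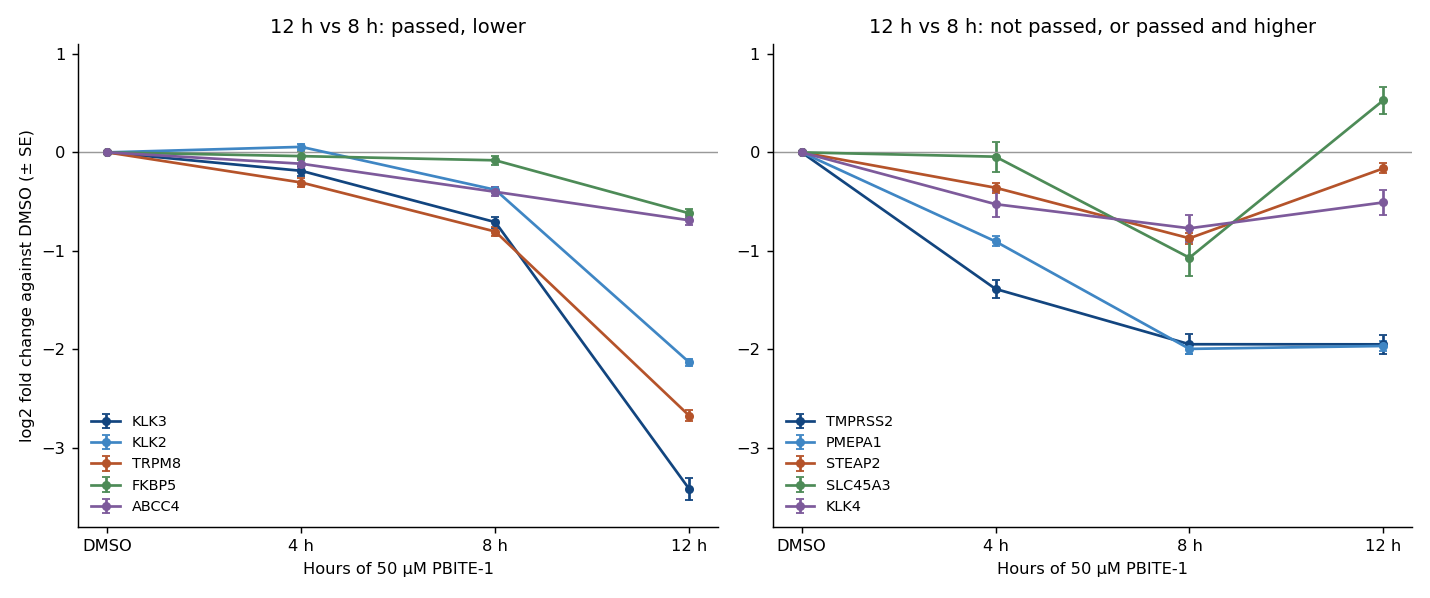
Log2 fold change against DMSO (y-axis, ± SE from limma) at 4, 8, and 12 h of 50 µM PBITE-1 (x-axis; the collection time of DMSO is not given and its point is 0 by definition). Left, the 5 genes that were lower at 12 h than at 8 h, led by KLK3, TRPM8, and KLK2; right, TMPRSS2 and PMEPA1, near −1.95 and −1.97 at 12 h, and STEAP2, SLC45A3, and KLK4, whose values were less negative or positive at 12 h.

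Genes of membrane transport made up the rest. TRPM8, the cold- and menthol-gated cation channel (chr2:233917398-234019522, plus strand), was at 504, 486, and 509 CPM in DMSO, 374, 415, and 424 CPM at 4 h, 292, 287, and 279 CPM at 8 h, and 89.6, 68.5, and 79.3 CPM at 12 h of PBITE-1. It declined at every time with no overlap between groups, and most between 8 and 12 h on the log2 scale, as did KLK3 and KLK2. TRPM8 fell by 0.31 (SE 0.04, adjusted p = 2.99e-07), 0.80 (SE 0.05, adjusted p = 1.72e-18), and 2.67 (SE 0.06, adjusted p = 1.23e-32) on the log2 scale at the 3 times, the last 6.37-fold. With Dox it fell from 297, 303, and 299 CPM to 223, 238, and 234 CPM, by 0.37 (SE 0.03, adjusted p = 1.91e-10). The value was −0.11 with library size only.

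ABCC4, an ATP-driven efflux pump for organic anions and cyclic nucleotides (chr13:95019829-95301475, minus strand), changed less. It was at 144, 142, and 146 CPM in DMSO, 130, 135, and 134 CPM at 4 h, 107, 112, and 109 CPM at 8 h, and 83.5, 88.8, and 95.5 CPM at 12 h. ABCC4 fell by 0.40 at 8 h and by 0.69 at 12 h on the log2 scale (SE 0.05 and 0.05, adjusted p = 7.93e-10 and 4.11e-16). At 4 h the value of −0.12 ± 0.05 (adjusted p = 0.0334) did not pass in DESeq2 (0.062), with a filter of 10 counts in every sample (0.0565), or without any 1 of 5 samples, namely DMSO replicate 1 or 3 or 4 h replicate 1, 2, or 3 (0.0503 to 0.111). With Dox it fell by 0.35 (SE 0.04, adjusted p = 4.54e-08), from 166, 169, and 158 CPM to 129, 123, and 134 CPM, and by 0.09 with library size only, which did not pass (0.056).

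STEAP2, a metalloreductase that reduces iron and copper at membranes (chr7:90167590-90238137, plus strand), rose with Dox. It was at 1121, 1213, and 1224 CPM in shERG-DMSO and at 1820, 1966, and 1977 CPM in shERG-Dox, with no overlap. The log2 fold change was 0.69 ± 0.03 (adjusted p = 2.06e-17), 1.62-fold. With PBITE-1 it moved down and then back. It was at 1313, 1412, and 1481 CPM in DMSO, 1021, 1101, and 1159 CPM at 4 h (−0.36 ± 0.05, adjusted p = 2.97e-07), 774, 752, and 772 CPM at 8 h (−0.87 ± 0.05, adjusted p = 1.79e-17), and 1441, 1089, and 1260 CPM at 12 h. The samples at 12 h overlapped with DMSO, and the log2 fold change of −0.16 ± 0.05 (adjusted p = 0.00425) was −0.06 (0.199) without 12 h replicate 2, −0.26 (5.07e-07) without 12 h replicate 1, −0.14 (0.165) in DESeq2, and −0.18 (0.0592) with no filter on low counts. From 8 to 12 h STEAP2 rose by 0.71 (SE 0.05, adjusted p = 4.18e-14).

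SLC45A3 encodes prostein, a prostate membrane protein of the sugar transporter type that is itself a fusion partner of ETS genes in some tumors (chr1:205657851-205680459, minus strand). It was at 30.8, 27.9, and 28.5 CPM in DMSO, at 26.9, 28.6, and 28.8 CPM at 4 h, and at 14.1, 13.2, and 14.2 CPM at 8 h. The groups overlapped at 4 h (log2 fold change −0.04 ± 0.15, 95% interval −0.35 to 0.26) and separated at 8 h, when SLC45A3 fell by 1.07 (SE 0.18, adjusted p = 2.06e-06). At 12 h it was at 61.3, 27.1, and 45.9 CPM, with 1 sample below the DMSO range and the other two above it. It rose by 0.53 (SE 0.14, adjusted p = 0.000642) against DMSO and by 1.60 (SE 0.18, adjusted p = 4.44e-10) from 8 to 12 h. Without 12 h replicate 2 these values were 0.86 and 1.93, and without 12 h replicate 1 the former was 0.28 (adjusted p = 0.018). With Dox, SLC45A3 rose from 36.4, 35.4, and 33.0 CPM to 44.3, 39.9, and 45.6 CPM, by 0.31 (SE 0.07, adjusted p = 0.000372).

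The direct tests between times split the genes. From 4 to 8 h, 8 of the 10 fell (26.3% of all genes), all but KLK4 (−0.24, adjusted p = 0.184) and FKBP5 (−0.04, adjusted p = 0.435), and PMEPA1 (−1.09) and SLC45A3 (−1.03) were past both thresholds (2.22% of all genes). The number that rose was 0, beside 26.7% of all genes, also at an unadjusted p under 0.05 in limma, and 0 in edgeR and DESeq2. From 8 to 12 h, 5 fell and 2 rose, beside 32.5% and 27.8% of all genes. KLK3 (−2.71), TRPM8 (−1.87), and KLK2 (−1.75) were past both and lower (6.59% of all genes), and SLC45A3 (1.60) past both and higher (3.48% of all genes). FKBP5 (−0.54) and ABCC4 (−0.29) fell by less. In edgeR the number that rose was 3, with KLK4 added (0.33, adjusted p = 0.0381). Without 12 h replicate 2 the number that rose was 4, with KLK4 and PMEPA1 added.

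The response to PBITE-1 at 12 h differed from the response to Dox for 9 of the 10 genes, by the interaction in a fit of all 18 samples. It was more negative for 8, beside 35.1% of all genes, and less negative for FKBP5, beside 33.3%. With library size only these calls over all genes were 6667 and 3292 rather than 4970 and 4714, and the median of all genes was −0.28 rather than −0.02. The difference in log2 fold change was −3.21 ± 0.13 for KLK3, −2.34 ± 0.07 for TRPM8, −1.67 ± 0.07 for PMEPA1, and −1.58 ± 0.04 for KLK2 (adjusted p at most 7.64e-26), the genes past both thresholds, as were 15.9% of all genes. TMPRSS2 differed by −0.97 ± 0.12, STEAP2 by −0.90 ± 0.07, KLK4 by −0.72 ± 0.17 (−0.43, adjusted p = 0.006, without 12 h replicate 2), and ABCC4 by −0.38 ± 0.07. FKBP5 went the other way, by 0.84 ± 0.06 (adjusted p = 1.96e-16). For SLC45A3 the difference was 0.18 ± 0.18 (95% interval −0.19 to 0.55, adjusted p = 0.387), and it was 0.51 (9.11e-05) without 12 h replicate 2, −0.06 without 12 h replicate 1, and −0.08 with library size only. Durations may differ, and the treatments were given to different cells, so treatment, cells, and duration cannot be told apart.

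**Figure D4:**
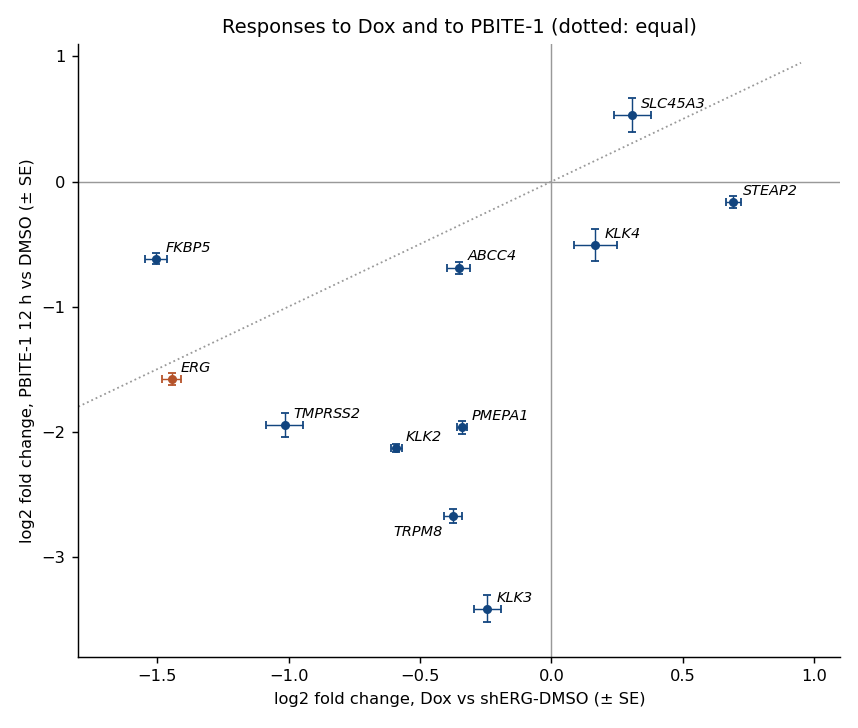
Log2 fold change with Dox (x-axis) and at 12 h of PBITE-1 (y-axis), both ± SE from limma, for the 10 genes (blue) and for ERG (orange); the dotted line marks equal responses. KLK3, TRPM8, KLK2, and PMEPA1 lie far below the line and FKBP5 lies above it; the horizontal position of KLK3 (−0.24) turns to 0.02 when counts are scaled by library size only.

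Under DMSO the shERG cells and the other VCaP cells already differed at 7 of the 10 genes, with 4 higher (23.3% of all genes) and 3 lower (23.3% of all genes) and 0 past both thresholds (1.19% of all genes higher and 5.0% lower), in limma as in edgeR and DESeq2 and also at an unadjusted p under 0.05. KLK3 (log2 fold change 0.51 ± 0.05), FKBP5 (0.44 ± 0.04), KLK2 (0.25 ± 0.03), and TMPRSS2 (0.22 ± 0.06) were higher in shERG-DMSO, and TRPM8 (−0.90 ± 0.04), STEAP2 (−0.41 ± 0.05), and PMEPA1 (−0.32 ± 0.04) lower. ERG was also higher there, by 0.46. KLK4 was at −0.22 ± 0.11 (adjusted p = 0.11) and passed, also at −0.22, in a fit of only the groups compared (0.0418 in limma). The line and the experiment it was grown in cannot be told apart.

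ERG fell by 1.44 on the log2 scale with Dox. With PBITE-1, ERG was at 280, 290, and 298 CPM in DMSO, 178, 184, and 178 CPM at 4 h, 96.6, 94.0, and 90.7 CPM at 8 h, and 102, 88.5, and 101 CPM at 12 h. It had fallen at 4 h (−0.68), as had TMPRSS2 (−1.39) and PMEPA1 (−0.90). From 8 to 12 h, when KLK3 fell by 2.71 more, ERG was at 0.04 ± 0.05 on the log2 scale (adjusted p = 0.501).

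A wider list held 32 other androgen-induced genes, all of which passed the filter on low counts. With Dox, 19 fell and 7 rose, with a median log2 fold change of −0.43 beside 0.02 over all genes. With PBITE-1, 13 fell and 7 rose at 4 h (median −0.06), 18 fell and 10 rose at 8 h (−0.35), and 17 fell and 9 rose at 12 h (−0.24), beside medians of −0.01, −0.02, and −0.01 over all genes. Among all genes, 35.3% fell and 35.1% rose with Dox. At 4 h of PBITE-1, 24.7% of all genes fell and 26.4% rose, and at 8 h 37.0% fell and 35.9% rose. At 12 h, where 17 of the 32 fell and 9 rose, 39.4% of all genes fell and 39.4% rose.

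The extremes of that list were genes of low count. NNMT, a methyltransferase of nicotinamide, had 5 to 12 counts per sample in shERG-DMSO and 2 in each shERG-Dox sample, a log2 fold change of −1.73 ± 0.59 (adjusted p = 0.0116) that did not pass without shERG-DMSO replicate 3 (0.0546). AZGP1, a secreted zinc-binding glycoprotein of the prostate, had 1 to 5 counts in shERG-DMSO and 8 to 11 in shERG-Dox (1.70 ± 0.58, adjusted p = 0.0108), and did not pass in DESeq2 (0.0578) or without shERG-DMSO replicate 3 (0.0819). It had 12 to 18 counts in DMSO and 0 in every 12 h sample, at least 4.42-fold lower against a floor of 3 counts per library. The median of the list at 12 h would be the same with AZGP1 at this bound. TSC22D3, a leucine zipper protein induced by glucocorticoid as well as androgen, rose at 12 h by 3.70 (SE 0.26, adjusted p = 8.27e-16), from 14 to 19 counts in DMSO to 189 to 208 counts.

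**Figure D5:**
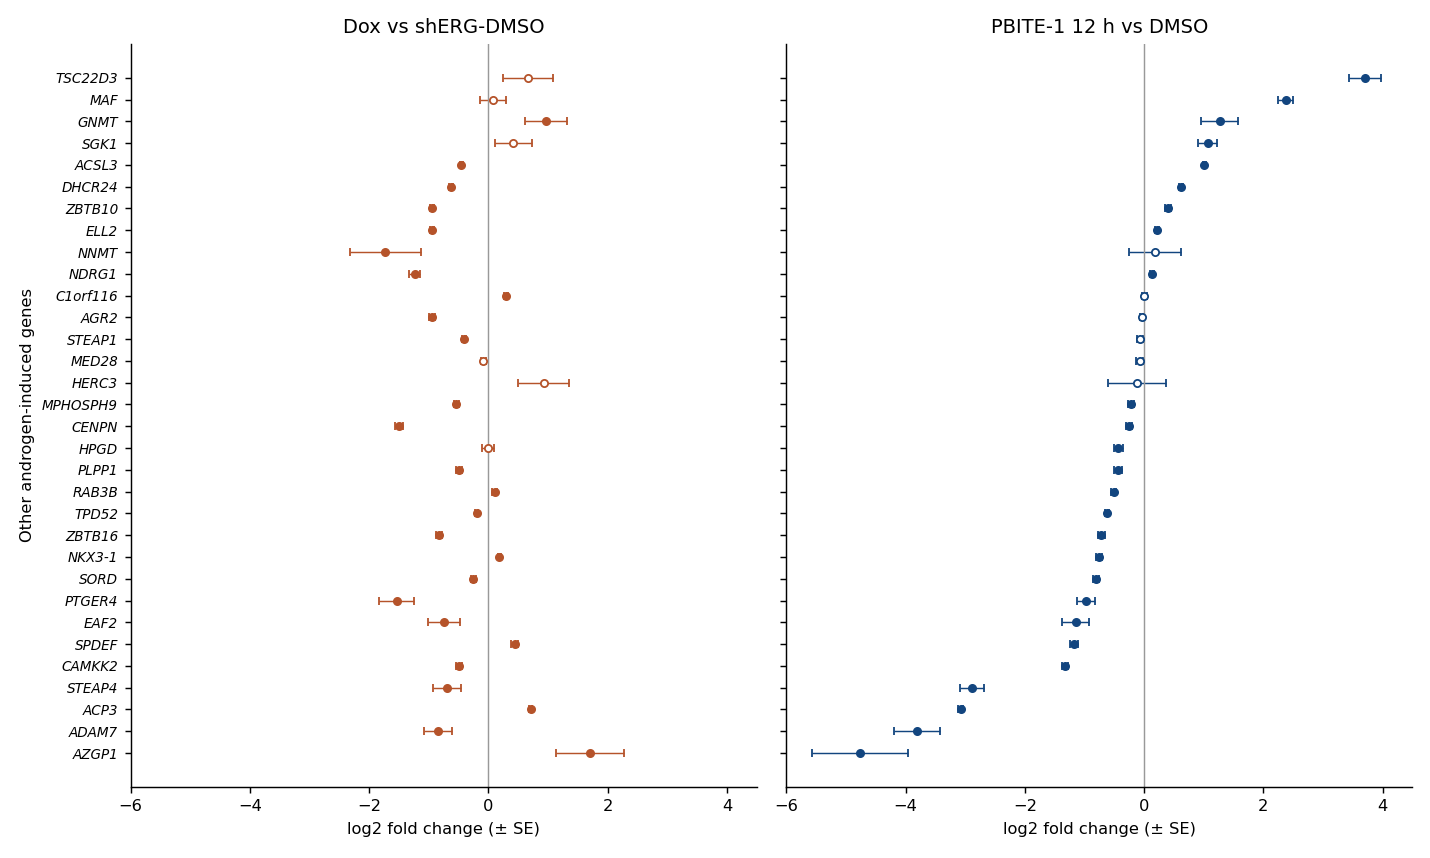
Log2 fold change (x-axis, ± SE from limma) of 32 other androgen-induced genes (y-axis, ordered by the value at 12 h) with Dox (left) and at 12 h of PBITE-1 (right); filled points have an adjusted p under 0.05. Values run from −1.73 (NNMT) to 1.70 (AZGP1) with Dox and up to 3.70 (TSC22D3) at 12 h; AZGP1 had 0 counts at 12 h, so its fitted value there depends on the prior count.

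Of 5 listed genes that androgen represses, 4 were tested, and UGT2B28 was not. All 4 tested (UGT2B17, UGT2B15, FOLH1, OPRK1) fell at 12 h of PBITE-1, beside 39.4% of all genes, and 4 fell at 8 h (37.0% of all genes) and 2 at 4 h (24.7%). Their median log2 fold change at 12 h was −1.92, and −1.04 with at least 10 counts in every sample. With Dox it was −0.53, and −0.04 with that filter. With Dox 3 fell, beside 35.3% of all genes, and FOLH1, the gene of prostate-specific membrane antigen, rose by 1.33 (SE 0.06, adjusted p = 5.64e-16), from 77.8, 80.7, and 96.8 CPM to 229, 221, and 191 CPM. UGT2B17, which inactivates androgens by glucuronidation, had 61 to 91 counts in shERG-DMSO and 16 to 34 in shERG-Dox (−1.56 ± 0.26, adjusted p = 6.01e-06). It had 25 to 34 counts in DMSO and 0 to 3 at 12 h. UGT2B17 and UGT2B15 are near-identical and their counts are uncertain.

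Among 17 genes of pioneer factors and coregulators of steroid receptors, 7 fell and 9 rose with Dox, when 35.3% of all genes fell and 35.1% rose, and 6 fell and 9 rose at 12 h of PBITE-1, beside 39.4% and 39.4%. The median log2 fold changes were 0.11 and 0.16, and the former was 0.37 with library size only, which moved the median of all genes to 0.28. NCOA3, a coactivator of nuclear receptors, rose in both, from 79.5, 77.8, and 83.9 CPM to 165, 179, and 180 CPM with Dox (1.12 ± 0.05) and from 82.7, 84.2, and 85.1 CPM to 229, 247, and 245 CPM at 12 h (1.52 ± 0.05). HOXB13, a homeobox factor of the prostate that works beside nuclear receptors, had the most negative value of the list at 12 h, and fell by 1.31 (SE 0.06), from 243, 232, and 226 CPM to 110, 80.4, and 96.7 CPM. HOXB13 rose with Dox by 0.75 (SE 0.03, adjusted p = 6.67e-18), from 277, 291, and 285 CPM to 485, 479, and 474 CPM. With Dox the most negative value was that of FKBP4, a co-chaperone of HSP90, which fell by 0.67 (SE 0.03, adjusted p = 1.46e-17).

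Genes whose log2 CPM over the 18 samples was most like that of KLK3 included ACSL5 (Pearson r 0.995) and NEK6 (0.993), among 11311 genes with a mean count of at least 50. KLK2 had an r of 0.966 with KLK3 and FKBP5 one of 0.37. TMPRSS2 was most like GEMIN4 (0.985), ING5 (0.983), and AMD1 (0.982), with an r of 0.939 for ERG and 0.929 for PMEPA1. FKBP5 was most like NT5DC2 (0.984), GRPEL1 (0.982), and NME2 (0.980). The samples fall into 6 groups, and these values describe the group pattern only.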

How the data were processed

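Whole-number counts per gene were used as the authors deposited them, without normalization, in 1 table of 22034 Ensembl identifiers and 18 samples. The study's methods name Kallisto for quantification, whereas the submitters' processing notes list STAR, featureCounts, and hg38, and which of these made the table is not known. The annotation and the use of strand are not given in the sources used here. Symbols were matched for 22011 identifiers, and positions and exon lengths were taken from GENCODE 29 (GRCh38).

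The 10 genes and all gene lists were chosen with earlier results of these data known. Genes were kept by filterByExpr over the 6 groups in edgeR 4.0.16, which left 14164. After TMM scaling, limma 3.58.1 (R 4.3.3) gave two-sided tests by voom, lmFit, and eBayes, with Benjamini-Hochberg adjustment over these genes, following the methods the study names. The 6 shERG samples and the 12 other samples were fitted separately, and the interaction and the comparison of the DMSO groups used all 18. The scripts were tested on simulated data. No samples were left out, and replicates of a group differed by more than sampling noise (chi-square per degree of freedom 1.69 to 4.94). Nothing in the labels says that replicates came from separate cultures, though the methods call the PBITE-1 replicates biological, so p-values measure the spread between these samples. Depth limits precision mainly for genes of few counts.

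The alternatives tried were the quasi-likelihood test of edgeR, DESeq2 1.42.0, RLE and upper-quartile scaling, library size only, no filter (21560 genes), a minimum of 10 counts per sample (11807 genes), a fit of all 18 samples or of only the groups compared, a replicate block, and leaving out each sample. Named genes were the 10 genes, ERG, the most negative and most positive gene of each list that passed with Dox and at 12 h, and the 3 genes most like KLK3, TMPRSS2, and FKBP5. A few genes that this rule names are not reported here. Likeness used log2 CPM with a prior count of 2. Promoter windows were RefSeq sequences of GRCh38.p14, searched with at most 3 mismatches outside the N positions.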

Additional observations from a re-analysis of the deposited data

Results flagged for a closer look

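Each value below is a difference between responses with an adjusted p under 0.05 in limma, either between times of PBITE-1 or between PBITE-1 at 12 h and Dox, as a difference in log2 fold change. From 4 to 8 h the response differed for 8 of the 10 genes, PMEPA1 (−1.09), SLC45A3 (−1.03), TMPRSS2 (−0.56), KLK3 (−0.52), STEAP2 (−0.51), TRPM8 (−0.50), KLK2 (−0.44), and ABCC4 (−0.29), all toward lower levels. From 8 to 12 h it differed for 7, with KLK3 (−2.71), TRPM8 (−1.87), KLK2 (−1.75), FKBP5 (−0.54), and ABCC4 (−0.29) lower and SLC45A3 (1.60) and STEAP2 (0.71) higher. KLK3, TRPM8, KLK2, and ABCC4 were lower in both intervals, and SLC45A3 and STEAP2 were lower in the first and higher in the other.

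PBITE-1 at 12 h differed from Dox for 9 genes, KLK3 (−3.21), TRPM8 (−2.34), PMEPA1 (−1.67), KLK2 (−1.58), TMPRSS2 (−0.97), STEAP2 (−0.90), KLK4 (−0.72, and −0.43 without 12 h replicate 2), ABCC4 (−0.38), and FKBP5 (0.84). FKBP5, with the deepest fall of the 10 with Dox, was the one with a less negative response at 12 h of PBITE-1 by this test. Cells, and possibly duration, differ along with the treatment and cannot be told apart from it.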

How the results depend on the processing

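Of 1310 recomputed log2 fold changes of the 10 genes, 1265 kept their direction and their side of the threshold, 14 no longer passed, 16 newly passed, and 15 changed sign. With library size only, KLK3 with Dox turned to 0.018 and SLC45A3 in the difference between PBITE-1 and Dox to −0.082, by the shift of the median of all genes under that scaling. Relative to the median of all genes, KLK3, ABCC4, KLK4, and TMPRSS2 with Dox were at −0.26, −0.37, 0.15, and −1.03. These values were the same with TMM, upper-quartile scaling, and library size only. For other changes the cause was not tested. TMPRSS2 from 8 to 12 h (−0.0008) was 0.0052 in DESeq2, 0.012 with RLE, 0.022 with upper-quartile scaling, 0.025 with library size only, 0.032 with only the groups compared, and 0.0040 with the replicate block. Leaving out 1 sample gave −0.17 to 0.12 for TMPRSS2 from 8 to 12 h, −0.063 to 0.51 for SLC45A3 in the difference to Dox, −0.084 to 0.18 for PMEPA1 from 8 to 12 h, −0.0055 to 0.27 for NNMT at 12 h, and −0.51 to 0.0020 for KLK15 at 4 h.

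The number of the 10 genes past both thresholds and lower with Dox was 1 with upper-quartile scaling, with library size only, and with at least 10 counts in every sample, against 2, and 1 to 2 without 1 sample (1 without shERG-DMSO replicate 1 or shERG-Dox replicate 2). From 4 to 8 h it was 1 to 2, with 1 without 8 h replicate 2. The number that rose was 0 to 1 at 4 h, with 1 without DMSO replicate 1, 2 to 4 from 8 to 12 h, and 1 to 2 in the difference to Dox, the upper values without 12 h replicate 2. Without that sample, 7 rather than 9 genes fell at 12 h, with KLK4 and STEAP2 lost. Of the androgen-repressed genes, 1 rather than 3 fell with Dox with at least 10 counts in every sample, 2 rather than 1 rose with library size only, and 1 to 3 fell at 4 h without 1 sample (1 without DMSO replicate 3). Over all genes, library size only lowered the number that fell with Dox from 5005 to 3184 and the number past both and lower from 1019 to 506. Replicate numbers did not pair the samples (correlation of deviations at most 0.0413). The replicate block added 1 gene that rose at 4 h, KLK2 (0.06, adjusted p = 0.0385 in limma), and 1 from 8 to 12 h, KLK4 (0.31, 0.0452), and changed no other call of the 10 genes. Low counts limit NNMT, AZGP1, UGT2B17, and KLK15.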
